A study of Bos taurus with 16 samples.

Results

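ALPL, IBSP, SPP1, MGP, RUNX2 and SOX9 are genes of bone and cartilage formation, and they were followed in bovine theca cells given the growth factor BMP6. Every probe set to which the array's annotation gives 1 of these 6 symbols was taken, which made 9 of the 24016 probe sets tested. ALPL had 2 of them, IBSP 2, SPP1 1 and MGP 4, while RUNX2 and SOX9 are named by no probe set in the annotation used here and were not analysed here. The rule uses gene symbols and no signal, although the 6 genes were chosen with earlier results of these data known.

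The cells came from the theca interna, the steroid-producing layer of the ovarian follicle wall, of adult cattle ovaries collected at a slaughterhouse. Each culture pooled cells from about 50 follicles of 4 to 6 mm, lasted 6 days in medium without serum, and carried its treatment over the last 4 days. The 4 groups were BMP6 at 10 ng/ml together with luteinising hormone (LH) at 160 pg/ml (LH+BMP6), the same BMP6 alone (BMP6), the same LH alone (LH), and neither (control). Each group had 4 Affymetrix bovine arrays from 4 repeats of the experiment with other batches of ovaries, and the labels do not say whether a replicate number marks the same batch in every group. A replicate is thus a pool of many follicles, not a single animal. The values are log2 signals of RNA from whole cultures, in which more cells of a type and more RNA per cell cannot be told apart.

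BMP6 is a bone morphogenetic protein: it binds paired serine/threonine kinase receptors, which phosphorylate SMAD proteins that enter the nucleus and switch on genes such as ID1. In bone and cartilage precursors this pathway leads, through transcription factors that include RUNX2 and SOX9, to cells that secrete and mineralise matrix. In theca cells BMPs are known as local factors that lower androgen synthesis. Of the genes measured here, ALPL encodes an enzyme, IBSP and SPP1 encode acidic glycoproteins of bone matrix that bind integrins, and MGP encodes an inhibitor of calcification.

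The 16 arrays had lower quartiles of signal of 4.31 to 4.43 and highest signals of 14.07 to 14.41. The theca marker INSL3 had a signal of 14.08 ± 0.19 in control cultures (SD, n = 4), and all 7 listed theca markers were measured. None of these 7 markers rose with BMP6, 6 fell in BMP6 against control, and 7 fell in LH+BMP6 against LH, where 15.5% of all named genes fell in each comparison. ID1 rose by 2.71 ± 0.20 (log2 difference ± SE) in BMP6 against control and by 2.82 ± 0.20 in LH+BMP6 against LH. In their spiked hybridisation controls 3 arrays stood apart (control replicates 1 and 3 and LH replicate 1), with means of 8.94 to 9.01 against 10.15 to 10.44 on the other 13 arrays. Results that depend on these 3 arrays are given with and without them.

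ALPL rose with BMP6, by both of its probe sets and in cultures without and with LH. Of IBSP, 1 probe set rose in BMP6 against control, and the other fell slightly, by 0.15 on the log2 scale, in LH+BMP6 against LH. SPP1 and MGP did not pass the test of group means in either comparison. In BMP6 against control, 3 of the 9 probe sets were higher and 0 lower at an adjusted p under 0.05 (limma, Benjamini-Hochberg over all 24016 probe sets), where 18.1% of all probe sets were called, 8.12% higher and 9.95% lower. In LH+BMP6 against LH, 2 were higher and 1 lower, where 20.3% of all probe sets were called, 9.99% higher and 10.3% lower. The groups did not overlap for 3 higher and 1 lower probe sets in BMP6 against control, beside 22.8% of all probe sets (10.1% higher and 12.7% lower). In LH+BMP6 against LH they did not overlap for 2 higher and 1 lower, beside 20.9% of all (9.78% higher and 11.2% lower). The median change of the 9 probe sets was 0.14 in BMP6 against control and 0.17 in LH+BMP6 against LH, beside medians over all probe sets of 0.0092 and -0.0176. Each of these 2 member medians was the value of a single MGP probe set of low signal that was not called (limma adjusted p = 0.196 and 0.357). MGP supplied 4 of the 9 probe sets, so the medians do not describe the 4 genes evenly. The signals of all 9 probe sets are plotted by group.

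**Figure D1:**
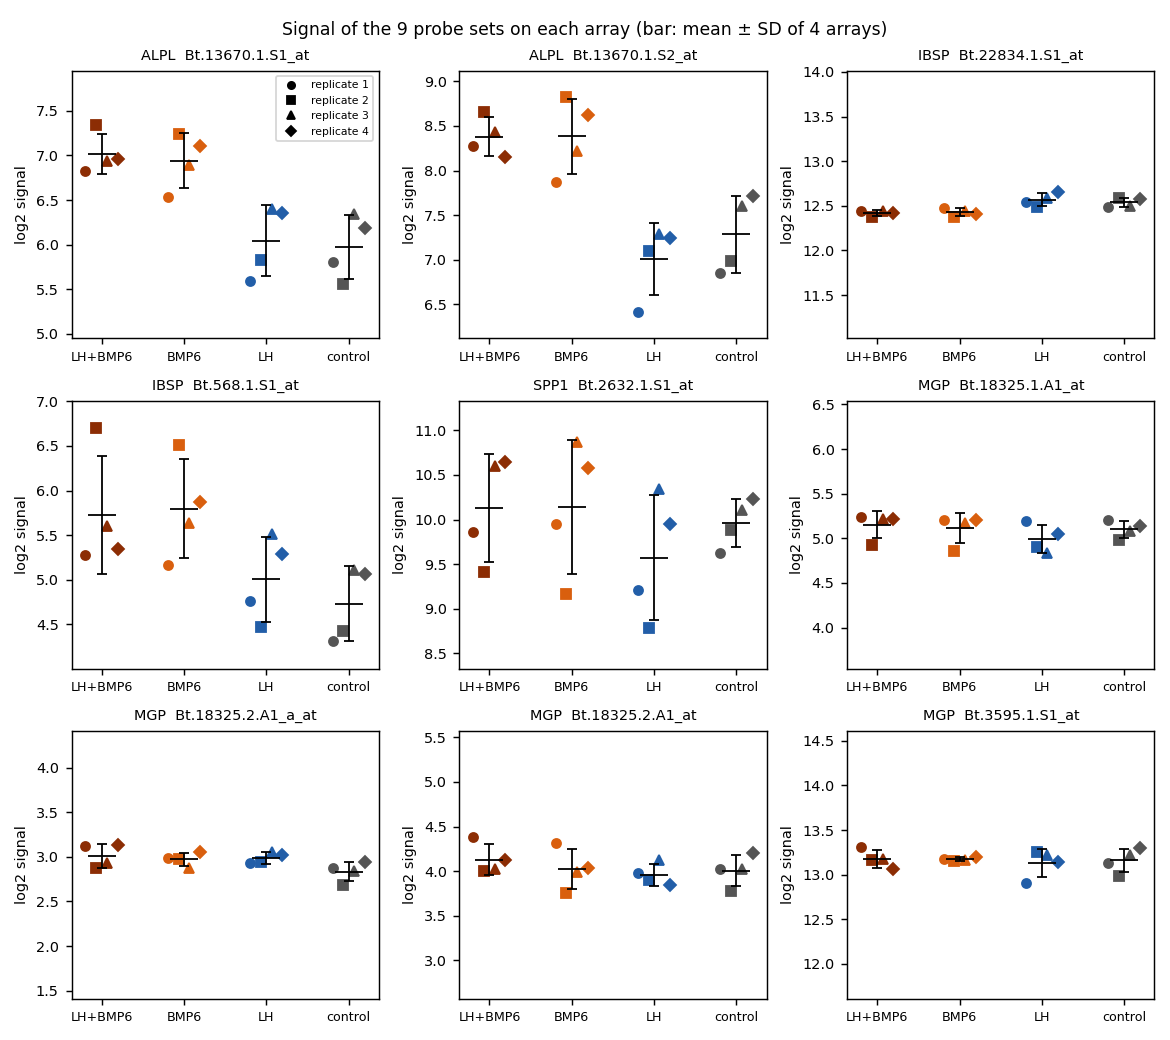
Log2 signal of each of the 9 probe sets of ALPL, IBSP, SPP1 and MGP on the 16 arrays, by group, with marker shapes for the replicate number and bars for the mean ± SD of 4 arrays. Each panel has its own vertical range, which spans at least 3 log2 units. Both ALPL panels show the LH+BMP6 and BMP6 arrays above the LH and control arrays, and the 2 IBSP panels differ from each other.

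ALPL encodes tissue-nonspecific alkaline phosphatase, an enzyme on the cell surface that splits pyrophosphate, an inhibitor of mineral growth, and is a widely used marker of osteoblasts. By probe set Bt.13670.1.S1_at, which targets a RefSeq transcript of ALPL, the signals were 6.53, 7.24, 6.89 and 7.10 in BMP6 replicates 1 to 4, against 5.81, 5.56, 6.34 and 6.19 in control replicates 1 to 4. All 4 BMP6 arrays lay above all 4 control arrays, and BMP6 replicate 2 was the highest while control replicate 2 was the lowest. The difference was 0.97 ± 0.20 (95% interval 0.54 to 1.39), which is 1.95-fold, with a limma adjusted p of 0.00289.

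With LH in both groups the same probe set read 6.82, 7.34, 6.94 and 6.96 in LH+BMP6 replicates 1 to 4, against 5.59, 5.83, 6.40 and 6.35 in LH replicates 1 to 4. The groups again did not overlap, and the LH arrays spread more widely than the LH+BMP6 arrays. The difference was 0.97 ± 0.20 (0.54 to 1.40), with a limma adjusted p of 0.00246.

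The other ALPL probe set, Bt.13670.1.S2_at, targets a sequence that is not a RefSeq transcript. It read 7.87, 8.82, 8.22 and 8.62 in BMP6 cultures, against 6.85, 6.99, 7.60 and 7.71 in control cultures, in the order of replicates 1 to 4. It read 8.28, 8.66, 8.43 and 8.15 in LH+BMP6 cultures, against 6.42, 7.10, 7.29 and 7.24 in LH cultures. Neither pair of groups overlapped. The differences were 1.10 ± 0.23 (0.61 to 1.58, adjusted p = 0.00288) in BMP6 against control and 1.37 ± 0.23 (0.88 to 1.86, adjusted p = 0.000457) in LH+BMP6 against LH, in the limma fit, which are 2.14-fold and 2.58-fold.

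S1 changed less than S2 in both comparisons, by amounts that did not pass an adjusted test. Probe set S1 changed by 0.13 less than S2 in BMP6 against control (exact permutation p = 0.4, 4 against 4 arrays, two-sided) and by 0.40 less in LH+BMP6 against LH (exact p = 0.0571). The smallest p this exact test can give is 0.0286. Within 1 comparison it could thus pass adjustment over the 16 such tests only if many other pairs reached that value too. Over both LH states S1 changed by 0.26 less (exact p = 0.018), which after adjustment over the 8 such pairs of probe sets of ALPL, IBSP and MGP was 0.0718. Because the groups did not overlap, same-numbered arrays had to differ in the same direction in all 4 replicates, for both probe sets in both comparisons. Without LH they differed by 0.55 to 1.68 for S1 and by 0.62 to 1.83 for S2. The size varied among the replicates, with replicate 2 the largest without LH.

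**Figure D2:**
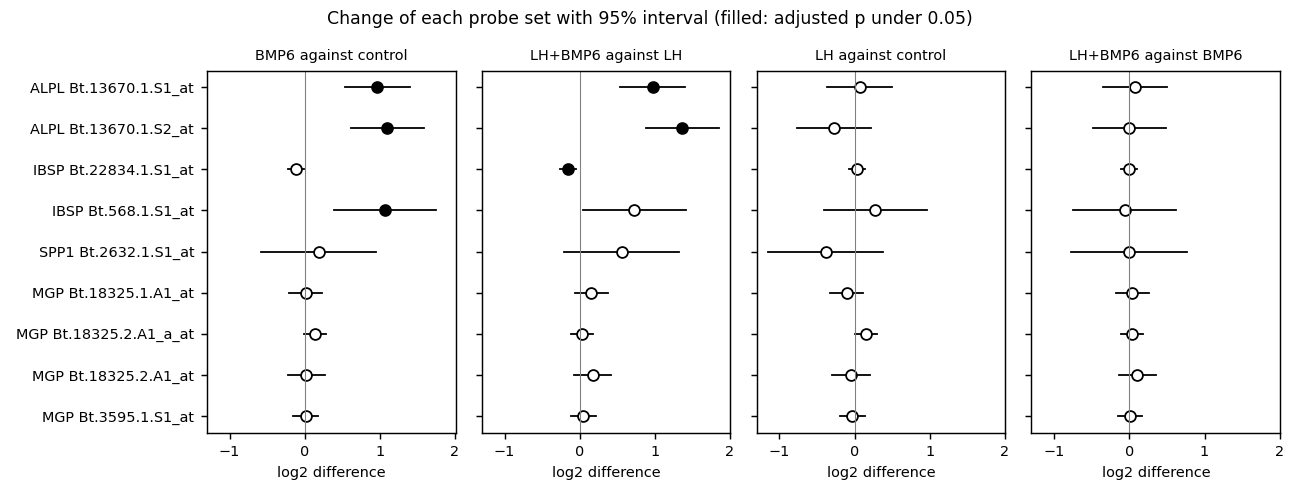
Change of each of the 9 probe sets in 4 comparisons, as the log2 difference of group means with its 95% interval, filled where the limma adjusted p was under 0.05. The filled points are ALPL in both BMP6 comparisons, IBSP Bt.568.1.S1_at in BMP6 against control, and IBSP Bt.22834.1.S1_at in LH+BMP6 against LH, while no point is filled in the 2 LH comparisons.

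IBSP encodes integrin-binding bone sialoprotein, a secreted protein of mineralising bone that can seed mineral crystals. Its 2 probe sets gave changes of opposite sign. Probe set Bt.568.1.S1_at targets a RefSeq transcript of IBSP. Its signals were 5.17, 6.51, 5.64 and 5.87 in BMP6 replicates 1 to 4, against 4.31, 4.43, 5.11 and 5.07 in control replicates 1 to 4. The groups did not overlap, although BMP6 replicate 1 at 5.17 lay just above control replicate 3 at 5.11, and control replicates 1 and 2 lay near the lower quartile of all signals. The difference was 1.07 ± 0.32 (95% interval 0.38 to 1.75) with a limma adjusted p of 0.0291. The probe set is dim, and a filter that leaves out the dimmest 40% of probe sets removed it, so that the change has no value under that filter. The call was lost when control replicate 1 or 2 or BMP6 replicate 2 or 4 was left out (adjusted p 0.0676 to 0.0994). Without the 3 arrays with low hybridisation controls the difference was 1.05 and the adjusted p 0.128.

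With LH the same IBSP probe set read 5.28, 6.70, 5.60 and 5.34 in LH+BMP6 cultures, against 4.76, 4.47, 5.51 and 5.29 in LH cultures. The groups overlapped, and LH+BMP6 replicate 2 stood well above the other 3. The difference was 0.72 ± 0.32 (0.0404 to 1.41), with a limma adjusted p of 0.134. Between same-numbered arrays it was 2.23 in replicate 2 and 0.05 to 0.52 in the other 3 replicates. Without replicate 2 of all 4 groups the difference was 0.22 (adjusted p = 0.586) in LH+BMP6 against LH and 0.73 (adjusted p = 0.0598) in BMP6 against control. The plot of differences by replicate shows replicate 2 above the others for this probe set in both comparisons.

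**Figure D3:**
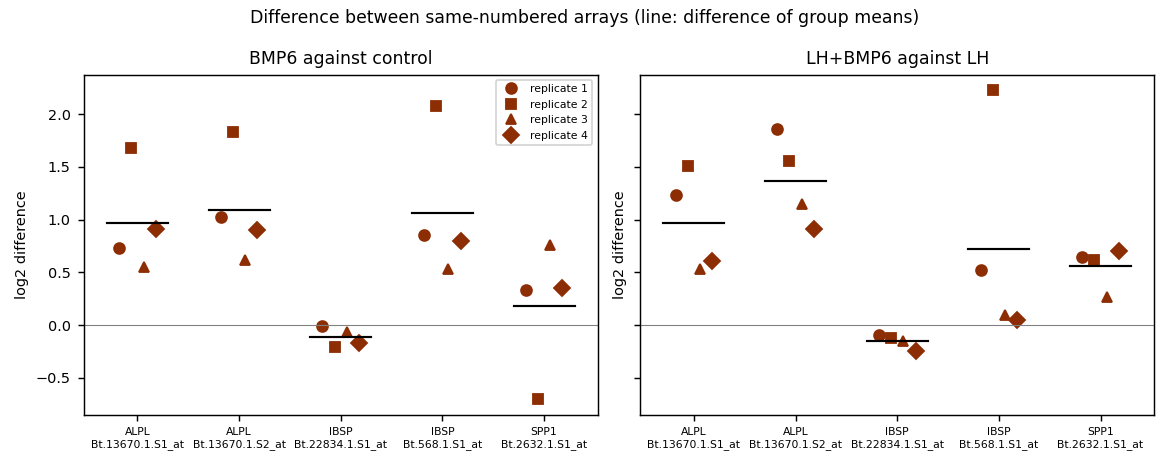
Log2 difference between same-numbered arrays for ALPL, IBSP and SPP1 probe sets in BMP6 against control and in LH+BMP6 against LH, with a marker shape for each replicate number and a line at the difference of group means. Replicate 2 gives the largest difference for IBSP Bt.568.1.S1_at in both panels, at 2.08 and 2.23, and the only negative difference for SPP1, at -0.70.

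The other IBSP probe set, Bt.22834.1.S1_at, targets a sequence that is not a RefSeq transcript. It read 12.48, 12.38, 12.44 and 12.41 in BMP6 cultures, against 12.49, 12.59, 12.50 and 12.58 in control cultures. It read 12.44, 12.37, 12.44 and 12.42 in LH+BMP6 cultures, against 12.54, 12.49, 12.59 and 12.66 in LH cultures. All arrays lay within a narrow range, with the BMP6 and LH+BMP6 arrays just below the control and LH arrays and no overlap in either pair. The differences were -0.11 ± 0.05 (-0.22 to -0.0063, adjusted p = 0.143) in BMP6 against control and -0.15 ± 0.05 (-0.26 to -0.0447, adjusted p = 0.0429) in LH+BMP6 against LH, in the limma fit. The call in LH+BMP6 against LH was lost in 7 of the 8 fits that left out 1 LH or LH+BMP6 array, with adjusted p from 0.0236 to 0.131 over the 8, and was kept only without LH replicate 2. It was also lost without the 3 arrays with low hybridisation controls (-0.16, adjusted p = 0.0732), without replicate 2 of all groups (adjusted p = 0.0536), and with only the arrays of the 2 groups compared (adjusted p = 0.118). The call was kept with the filter on dim probe sets (adjusted p = 0.0213) and with a fixed or random replicate block (adjusted p = 0.0406 and 0.0307).

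The 2 IBSP probe sets were already known to disagree when they were set side by side, so no p-value is given for their difference. The pair was still 1 of the 8 over which the ALPL value was adjusted. Bt.22834.1.S1_at changed by 1.18 log2 units less than Bt.568.1.S1_at in BMP6 against control, by 0.88 less in LH+BMP6 against LH, and by 1.03 less over both LH states. A single value for IBSP depends on how the probe sets are combined. By the mean of both the change was 0.48 (adjusted p = 0.0559) in BMP6 against control and 0.29 (adjusted p = 0.262) in LH+BMP6 against LH.

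SPP1 encodes osteopontin, a secreted phosphoprotein that binds integrins and CD44 and is made by many cell types besides bone cells. In the RefSeq annotation of assembly ARS-UCD2.0 its gene lies on chromosome 6 with MEPE as the only protein-coding gene between it and IBSP. Its probe set, Bt.2632.1.S1_at, read 9.95, 9.17, 10.87 and 10.58 in BMP6 cultures, against 9.62, 9.88, 10.11 and 10.23 in control cultures. BMP6 was higher in replicates 1, 3 and 4 and lower in replicate 2, and the groups overlapped. The difference was 0.18 ± 0.36 (95% interval -0.59 to 0.95), with a limma adjusted p of 0.803.

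With LH, SPP1 read 9.86, 9.41, 10.60 and 10.65 in LH+BMP6 cultures, against 9.21, 8.79, 10.34 and 9.95 in LH cultures. LH+BMP6 was higher in all 4 same-numbered pairs, by 0.27 to 0.70, though the labels do not say that these arrays are pairs. The groups overlapped, and the arrays within each group lay far apart. The difference was 0.56 ± 0.36 (-0.21 to 1.33), with a limma adjusted p of 0.327. Averaged over both LH states it was 0.37 ± 0.26 (-0.17 to 0.91, adjusted p = 0.316). The result in LH+BMP6 against LH depends on the model. A limma fit with the replicate number as a block called SPP1 higher (adjusted p = 0.0215), while a random block did not (adjusted p = 0.231).

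MGP encodes matrix Gla protein, a small secreted protein that depends on vitamin K and keeps soft tissue and cartilage from calcifying. Probe set Bt.3595.1.S1_at, which targets its RefSeq transcript, read 13.18, 13.15, 13.17 and 13.20 in BMP6 cultures, against 13.13, 12.99, 13.22 and 13.30 in control cultures. It read 13.31, 13.17, 13.18 and 13.06 in LH+BMP6 cultures, against 12.91, 13.26, 13.22 and 13.14 in LH cultures. The groups overlapped in both pairs. The differences were 0.01 (-0.15 to 0.18, adjusted p = 0.949) and 0.05 (-0.11 to 0.21, adjusted p = 0.729) in the limma fit. The other 3 MGP probe sets, none of which targets a RefSeq transcript, were dim, and the filter on the dimmest 40% removed them all. Their group means were 4.99 to 5.15 for Bt.18325.1.A1_at, 3.96 to 4.13 for Bt.18325.2.A1_at and 2.83 to 3.01 for Bt.18325.2.A1_a_at. They changed by 0.01 to 0.14 in BMP6 against control (adjusted p 0.196 to 0.962) and by 0.03 to 0.17 in LH+BMP6 against LH (adjusted p 0.345 to 0.851).

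None of the 9 probe sets passed the test for an effect of LH. In LH against control 0 were called (1 had an unadjusted p under 0.05), where 0.0125% of all probe sets were called. In LH+BMP6 against BMP6 0 were called (0 unadjusted), where 0% of all probe sets were called, and the same held for the interaction, which asks whether BMP6 changed a probe set differently with and without LH. ALPL had interactions of 0.01 and 0.27 for S1 and S2, IBSP had -0.34 (-1.31 to 0.62) for Bt.568.1.S1_at and -0.04 for Bt.22834.1.S1_at, and SPP1 had 0.38 (-0.71 to 1.46). The median SE over all probe sets was 0.102 for a difference and 0.144 for an interaction. The largest LH difference among the 9 was that of SPP1 at -0.38 (-1.15 to 0.38).

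Averaging the BMP6 effect over both LH states was a comparison added after the data were seen. ALPL rose by 0.97 ± 0.14 (adjusted p = 5.56e-05) and 1.23 ± 0.16 (adjusted p = 1.78e-05) for S1 and S2. IBSP rose by 0.90 ± 0.23 (adjusted p = 0.00576) for Bt.568.1.S1_at and fell by 0.13 on the log2 scale (adjusted p = 0.00844) for Bt.22834.1.S1_at. For Bt.568.1.S1_at the arrays with and without BMP6 overlapped, and replicate 2 gave its largest differences without and with LH, 2.08 and 2.23. No alternative processing was run for the averaged comparison, so how far its calls depend on single arrays was not tested. In this comparison 31.4% of all probe sets were called, 15.1% higher and 16.3% lower.

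The genes whose pattern over the 16 arrays was nearest to each called probe set were found by the root mean square difference of centred signals, among the other 9154 named genes. For ALPL S1 they were MMD at 0.164, TMEM54 at 0.179 and CXCL8 at 0.18, beside a spread of ALPL S1 about its own mean of 0.562. For ALPL S2 they were ADCY2 at 0.185, RRAD at 0.198 and CD200 at 0.201, beside its own spread of 0.705. The 2 ALPL probe sets shared none of their 3 nearest genes. This measure depends on the size of a change as well as on its pattern, and the 2 probe sets differed in spread. For IBSP Bt.568.1.S1_at the nearest were TNFRSF6B at 0.236, F5 at 0.284 and CREM at 0.291, beside its own spread of 0.653. For IBSP Bt.22834.1.S1_at they were the ribosomal protein genes RPS15A at 0.035 and RPL27 at 0.037, followed by CWC15 at 0.042, beside its own spread of 0.081.

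Among other genes of osteoblasts and mineralisation, 23 of 38 listed were measured, each by its brightest probe set. In BMP6 against control 4 rose and 1 fell, where 24.8% of all 9155 named genes were called, 9.31% higher and 15.5% lower. In LH+BMP6 against LH 5 rose and 1 fell, where 27.2% of all were called, 11.7% higher and 15.5% lower. The list's called share was 21.7% and 26.1%, close to that of all genes. Without LH replicate 1 or LH+BMP6 replicate 3 the 6 calls in LH+BMP6 against LH became 3. Its median change was 0.15 and 0.09, beside -0.0171 and -0.0324 over all genes.

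ANKH, which releases pyrophosphate precursors from cells, rose by 1.08 ± 0.16 (adjusted p = 0.000192) in BMP6 against control and 1.25 ± 0.16 (adjusted p = 4.9e-05) in LH+BMP6 against LH. SLC20A1, a sodium-phosphate transporter, rose by 0.52 ± 0.10 (adjusted p = 0.0011) and 0.42 ± 0.10 (adjusted p = 0.0047) in the same 2 comparisons. SLC20A2, another sodium-phosphate transporter, and ENPP1, which makes pyrophosphate, were picked after their values were seen. SLC20A2 changed by 0.09 (adjusted p = 0.754) and 0.02 (adjusted p = 0.938). ENPP1 changed by 0.25 (adjusted p = 0.426) and 0.08 (adjusted p = 0.817).

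The matrix genes of the list varied. FBLN1, a fibulin of the extracellular matrix, rose by 0.70 ± 0.15 (adjusted p = 0.00325) and 0.62 ± 0.15 (adjusted p = 0.0069), the call in LH+BMP6 against LH being lost without replicate 2 of all groups (0.50, adjusted p = 0.073). OGN, the small proteoglycan osteoglycin, was 3.99-fold lower in BMP6 against control (adjusted p = 0.0117) and 3.29-fold lower in LH+BMP6 against LH (adjusted p = 0.025). The OGN call was lost without the 3 arrays with low hybridisation controls in both comparisons (adjusted p = 0.0685 and 0.0718). In LH+BMP6 against LH it was also lost without LH replicate 1, 3 or 4 or LH+BMP6 replicate 2, 3 or 4 (adjusted p up to 0.0802), and in BMP6 against control without replicate 2 of all groups (-1.78, adjusted p = 0.054). Of the remaining called genes, named after their values were seen, BMP2 rose by 0.42 in BMP6 against control, and DMP1 by 0.42 and COL1A2 by 0.26 in LH+BMP6 against LH. The BMP2 call was lost without the 3 arrays with low hybridisation controls. The DMP1 and COL1A2 calls were lost without LH replicate 1 and without LH+BMP6 replicate 3. Osteocalcin, the product of BGLAP, is a marker of late osteoblasts, and BGLAP changed by 0.08 (adjusted p = 0.49) and -0.04 (adjusted p = 0.792). SPARC, which encodes osteonectin, changed by -0.02 and 0.09, also without passing the test.

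Few cartilage genes passed the test, beside 24.8% and 27.2% of all named genes in the 2 comparisons. Most of those measured were dim. The filter on dim probe sets kept only 4 of the 15 measured, and 0 of these 4 were called in either comparison. Whether the genes it removed could show a change as readily as brighter genes was not tested. Of 27 listed, 15 were measured, and 0 were called in BMP6 against control, while in LH+BMP6 against LH only CHAD, which encodes the cartilage protein chondroadherin, rose, by 0.33 ± 0.11 (adjusted p = 0.0331), which made 6.67% of the list. CHAD was dim, with group means of 3.99 to 4.32, near or below the lower quartile of all signals, and the filter on dim probe sets removed it. The CHAD call was lost without the 3 arrays with low hybridisation controls (adjusted p = 0.139) and without LH replicate 1 or 3 or LH+BMP6 replicate 1 or 4 (adjusted p 0.0923 to 0.106). The list's median change was 0.02 and 0.01, beside -0.0171 and -0.0324 over all genes.

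The next list held receptors and processing enzymes of the 4 gene products, and shares BMP2 and BMP4 with the osteoblast list. Of 16 measured of 21 listed, 5 rose and 2 fell in each of the 2 comparisons, a called share of 43.8% beside 24.8% and 27.2% of all named genes. The osteopontin receptor CD44 rose by 0.71 ± 0.21 (adjusted p = 0.0224) and 1.19 ± 0.21 (adjusted p = 0.000551), although without replicate 2 of all groups the change in BMP6 against control was 0.50 (adjusted p = 0.118). Leaving out 1 of BMP6 replicates 2 and 4 or of control replicates 1, 2 and 4 also ended that call (adjusted p up to 0.0786). ITGAV, the integrin subunit that binds both IBSP and SPP1 products, rose by 0.52 ± 0.11 (adjusted p = 0.00305) and 0.68 ± 0.11 (adjusted p = 0.000335). MMP2, a gelatinase, rose by 0.87 ± 0.12 (adjusted p = 8.86e-05) and 1.00 ± 0.12 (adjusted p = 1.95e-05). TGM2, a transglutaminase that cross-links osteopontin, fell, with differences of -1.61 ± 0.10 (adjusted p = 2.91e-08) and -1.27 ± 0.10 (adjusted p = 4.97e-07).

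MGP needs carboxylation by GGCX with vitamin K, which VKORC1 recycles; both were picked after their values were seen. VKORC1 fell, with differences of -0.59 ± 0.07 (adjusted p = 2.95e-05) and -0.63 ± 0.07 (adjusted p = 1.26e-05). GGCX changed by -0.06 and 0.01 and did not pass the test. Of direct targets of BMP-SMAD signalling, 5 of 6 measured of 14 listed rose in each comparison and none fell. This was 83.3% of those measured, beside 24.8% and 27.2% of all named genes called (9.31% and 11.7% higher). Medians of the list were 1.60 and 1.69, beside -0.0171 and -0.0324 over all genes. In the 2 LH comparisons and the interaction 0 genes of the 4 lists were called.

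**Figure D4:**
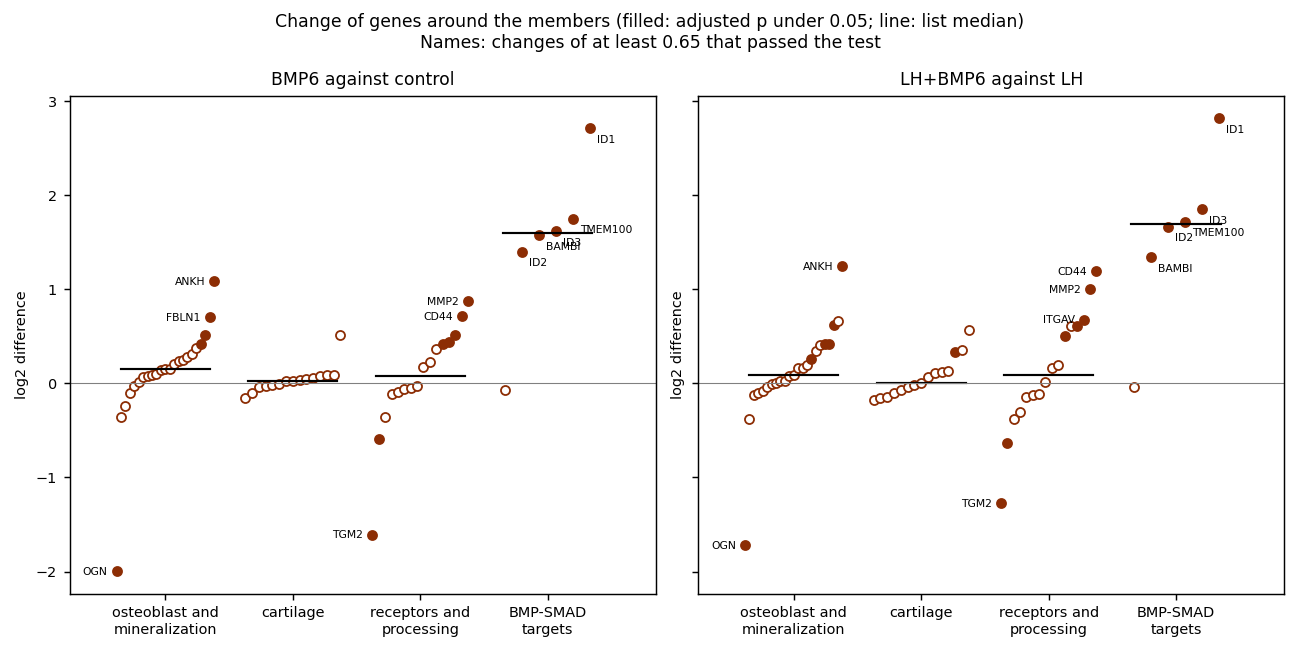
Log2 difference of each measured gene of the 4 lists in BMP6 against control and in LH+BMP6 against LH, sorted within its list, filled where the limma adjusted p was under 0.05, with a line at the list's median. ALPL, IBSP, SPP1 and MGP are not in these lists. Cartilage genes, most of them dim, lie near 0, OGN and TGM2 lie farthest below 0, and ID1 lies highest.

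Markers of other cells that such cultures could hold were summed on each array. Fibroblast markers (7 of 7 measured, FBLN1 among them) had summed signals, on the log2 scale, of 14.99 to 15.13 in BMP6 arrays against 14.38 to 14.80 in control arrays, and of 15.00 to 15.13 in LH+BMP6 arrays against 14.50 to 14.88 in LH arrays; 4 rose and 0 fell without LH, and 3 rose and 1 fell with it, a called share of 57.1% in each comparison beside 24.8% and 27.2% of all named genes. Granulosa markers (8 of 9) summed to 10.85 to 11.24 in BMP6 arrays against 10.13 to 10.38 in control arrays, and to 10.93 to 11.25 in LH+BMP6 arrays against 9.75 to 10.28 in LH arrays. In each comparison 2 granulosa markers rose, CDH2 and SERPINE2, and 0 fell, which is 25% of those measured, close to the share of all named genes called (24.8% and 27.2%). The median change of the granulosa markers was 0.08 and -0.08. FSHR changed by 0.07 and -0.08 and CYP19A1 by 0.16 and -0.13, without passing the test.

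Macrophage and leukocyte markers, of interest because macrophages make osteopontin, were measured for 12 of 15. They summed to 10.59 to 11.25 in BMP6 arrays against 10.51 to 10.56 in control arrays, and to 10.91 to 11.28 in LH+BMP6 arrays against 9.99 to 10.73 in LH arrays. In the 2 comparisons 1 and 5 markers were higher and none lower, or 8.33% and 41.7% of those measured, beside 24.8% and 27.2% of all named genes. The sums of smooth muscle and pericyte markers (10 of 12) overlapped in both pairs of groups, with 12.98 to 13.94 in BMP6 arrays against 13.03 to 13.50 in control arrays, and 13.18 to 13.91 in LH+BMP6 arrays against 12.84 to 13.63 in LH arrays. Of these markers 2 rose and 0 fell without LH, and 3 rose and 2 fell with it. This was 20% and 50% of those measured, beside 24.8% and 27.2% of all named genes. Endothelial markers (11 of 12) summed to 9.17 to 9.84 in BMP6 arrays against 9.54 to 10.27 in control arrays, and to 9.21 to 9.78 in LH+BMP6 arrays against 9.77 to 10.39 in LH arrays. In each comparison 0 were higher and 1 lower, or 9.09% of those measured, beside 24.8% and 27.2% of all named genes. The part of these cells in the ALPL and IBSP results was not tested.

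A measure of RNA integrity moved with BMP6 as well. The log2 signal of GAPDH probes at the 3' end minus those at the 5' end was 0.23 ± 0.04 in BMP6 arrays and 0.34 ± 0.05 in control arrays, and 0.14 ± 0.02 in LH+BMP6 arrays and 0.27 ± 0.12 in LH arrays (SD, n = 4 each). The same difference for actin was 1.86 ± 0.28 in BMP6 arrays and 2.20 ± 0.35 in control arrays, and 1.73 ± 0.28 in LH+BMP6 arrays and 2.10 ± 0.17 in LH arrays. Its part in the results was not tested. Without the 3 arrays with low hybridisation controls ALPL rose by 1.06 and 1.03 for S1 and S2 in BMP6 against control (adjusted p = 0.00719 and 0.0116) and by 0.82 and 1.17 in LH+BMP6 against LH (adjusted p = 0.0121 and 0.00167).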

How the data were processed

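The deposited table holds log2 signals, which the authors made with RMA in Affymetrix Expression Console per the submitters' processing notes; its version and a genome build are not given in the sources used here. RMA subtracts background, quantile-normalizes the arrays to a common distribution and summarises each probe set, so a signal has no true zero and levels of different probe sets cannot be ranked. The table was used as deposited, and 0 of its per-sample columns were left unused. Depth does not apply to arrays; their number, 4 per group, limits the precision. Of 24128 probe sets, 112 Affymetrix controls were left out and 24016 tested, dim ones included. In the platform annotation 13292 of them had 1 symbol, 86 several and 10638 none.

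All 16 arrays were fitted in 1 model of 4 group means with limma 3.58.1 in R 4.3.3 (lmFit, eBayes with an intensity trend), and p-values were adjusted by Benjamini-Hochberg over all 24016 probe sets; called means an adjusted p under 0.05. The script was tested on simulated data. Changes of probe sets of the same gene were compared by exact permutation of arrays, with p-values given for ALPL only. For other genes the brightest probe set by mean signal stood for the gene. Named were every member probe set, ID1, up to 4 genes with the largest called change per list, and the 3 nearest genes of each called probe set; others are marked as picked after their values were seen. The members and lists were chosen with earlier results of these data known. Alternatives were another variance model, a filter on dim probe sets, fewer arrays, quantile normalization, replicate blocks and other probe sets of a gene.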

Additional observations from a re-analysis of the deposited data

Results flagged for a closer look

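In groups of 4 arrays, an array was marked where its gap to the nearest other exceeded Dixon's critical value. Of 36 groups of member probe sets tested, 2 were marked, and chance marks about 1 in 20. Both were replicate 2 of MGP Bt.18325.1.A1_at. LH+BMP6 replicate 2 read 4.93 against 5.22 to 5.24 in the other 3 arrays, a gap of 0.911 of the group's range. BMP6 replicate 2 read 4.86 against 5.17 to 5.21, a gap of 0.907 of the range. LH replicate 2 at 4.90 and control replicate 2 at 4.98 were not marked. MGP was not called in any comparison.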

How the results depend on the processing

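ALPL kept its direction and its calls under every alternative run. Leaving out 1 array at a time gave 0.83 to 1.10 for S1 and 0.95 to 1.27 for S2 in BMP6 against control, and 0.82 to 1.09 and 1.17 to 1.46 in LH+BMP6 against LH. Of 763 values of member probe sets under alternatives, 745 kept their direction where called and their side of the threshold, 17 lost a call and 1 gained one. Most of the 763 belong to changes not called in the main fit, which had no call to lose. All 17 lost calls were those of the 2 IBSP probe sets. Among the 745 were 57 values, not called, that changed sign. The IBSP gene value, -0.11 in BMP6 against control and -0.15 in LH+BMP6 against LH by the brightest probe set, reversed to 0.48 and 0.29 by the mean of both probe sets and to 1.07 and 0.72 by Bt.568.1.S1_at. Without the 3 arrays with low hybridisation controls, 2660 probe sets were called in BMP6 against control (4340 with all arrays) and 0 in LH against control (3 with all arrays). LH against control gave 1 call with only the compared arrays, 1 without replicate 2 of all groups, and 1 to 6 when 1 array was left out. The osteoblast list went from 5 to 3 calls in BMP6 against control without the low-control arrays. The cause was not tested. Same-numbered arrays paired only in part. Their lowest correlation of deviations was -0.11 for BMP6 and control and 0.09 for LH+BMP6 and LH. It was 0.02 for LH and control and 0.08 for LH+BMP6 and BMP6. In the same order their mean correlation was 0.04, 0.20, 0.16 and 0.38. Between arrays of different number the mean was -0.01, -0.07, -0.05 and -0.12. Of 8 arrays, 4, 7, 5 and 5 correlated best with their own number. With a replicate block 5202 and 5706 probe sets were called in the 2 BMP6 comparisons, and SPP1 was called in LH+BMP6 against LH (0.56, adjusted p = 0.0215; 0.231 with a random block).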
